A study of Mus musculus with 6 samples.

Results

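The genes described here are 34 genes of the centromere, the kinetochore, the chromosomal passenger complex and the spindle checkpoint. They were listed by gene name, with earlier results of these data known but with no measured value in the rule. Each is represented by the 1 probe set annotated with its symbol alone, and all 34 were measured among 19938 genes. The cells were mouse lung endothelial cells of C57BL/6 background, stably transfected with a pcDNA3.1/Hygro(-) plasmid: the L1CAM group with the full-length mouse L1CAM sequence in it, the control group with the empty plasmid. L1CAM is an immunoglobulin superfamily adhesion molecule of the plasma membrane. Both groups were grown on crosslinked gelatin in medium with 20% serum and endothelial growth supplement for 4 days until confluent. Total RNA of 3 control and 3 L1CAM cultures, which the labels call biological replicates, was hybridised to 1 Affymetrix array each. The labels do not say whether each transfectant was a pool or a clone, so the p-values measure the spread between these cultures and may not include that between transfections.

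The kinetochore is the protein assembly that ties a chromosome to spindle microtubules. Nucleosomes that carry the histone variant CENP-A mark its site, a constitutive inner layer binds them, and the NDC80 complex of the outer layer binds the microtubule. Kinetochores without attached microtubules keep the spindle checkpoint active, which holds back the anaphase-promoting complex, while the chromosomal passenger complex with Aurora B releases faulty attachments. Most of these genes are transcribed mainly in late S phase, G2 and mitosis, so their RNA in a culture depends on how many cells are cycling. In bulk RNA, fewer dividing cells and less of each RNA per dividing cell cannot be told apart.

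All values are log2 expression, and differences are L1CAM minus control. L1cam itself measured 6.50, 6.77 and 7.31 on the control arrays and 10.49, 10.60 and 10.73 on L1CAM arrays 1, 2 and 3 (13.4-fold higher, adjusted p = 0.000112), so every array lay on the side its label names. L1CAM replicate 1 stood apart from the other L1CAM arrays across all genes, with correlations of 0.9948 and 0.9951 to them against 0.9986 between those 2. It was about as close to control arrays 1, 2 and 3, at 0.9952, 0.9935 and 0.9938. L1CAM replicates 2 and 3 correlated with the control arrays at 0.9878 to 0.9903. Of 11 endothelial markers, 0 lay below the array medians (6.55 to 6.58) on all arrays, and their mean was 11.30 to 11.33 in control and 11.18 to 11.21 in L1CAM cultures. Fli1 and Cldn5 were the 2 of 11 called, both lower (-0.52 and -0.22), where 8.19% of all genes were called lower. Cdh5, the endothelial cadherin, measured 13.10, 13.13 and 13.13 on the control arrays and 13.07, 13.04 and 13.02 on the L1CAM arrays, while Vwf read 6.82 to 6.88 over all 6, close to the array medians. Among markers of other cell types, 3 of 8 for fibroblasts, 6 of 8 for smooth muscle and pericytes, 5 of 8 for macrophages and leukocytes and 6 of 8 for epithelium lay below the array medians throughout. Of these 32 markers 1 was called, higher in L1CAM cells (Cnn1, of smooth muscle), where 6.85% of all genes were called higher. The list means spanned 6.24 to 6.27 in control and 6.22 to 6.27 in L1CAM cultures for fibroblasts, 5.88 to 5.93 and 5.86 to 5.99 for smooth muscle, 6.49 to 6.64 and 6.40 to 6.59 for macrophages and leukocytes, and 5.82 to 5.84 and 5.84 to 5.96 for epithelium.

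Kinetochore, passenger and checkpoint genes were lower in the L1CAM cultures. Of the 34 genes, 22 fell and 0 rose at a limma adjusted p under 0.05, against 8.19% of all genes that fell and 6.85% that rose. At an unadjusted p under 0.05 the counts were 30 lower, against 14.1% of all genes, and 0 higher. The differences ranged from -1.72 for Cenpq to -0.01 for Mis12, with a median of -1.13, where the median of all genes was 0.02. A fall of at least 1 on the log2 scale was measured for 19 of the 34 genes, against 1.17% of all genes. Bub3, Mis12, Zwint and Cenpc1 were the genes with differences between -0.25 and 0.

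**Figure D1:**
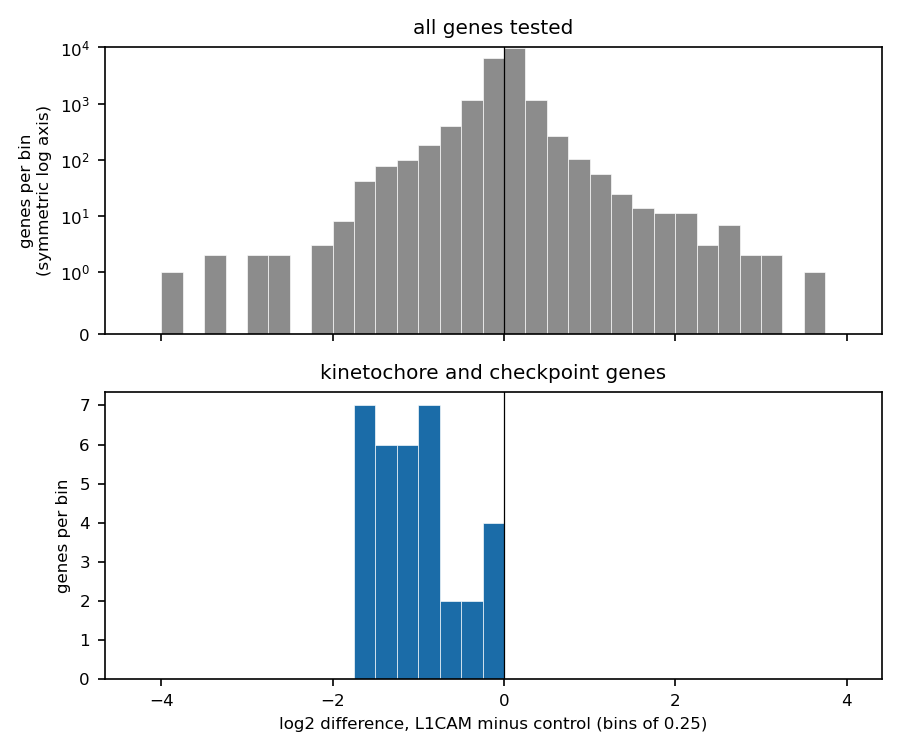
Number of genes in each bin of 0.25 of the log2 difference between L1CAM and control cells. The upper panel counts all 19938 genes tested on a symmetric log axis, and the lower panel counts the 34 kinetochore and checkpoint genes, which lie between -1.72 and -0.01.

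The size of the fall differed between the L1CAM cultures. Averaged over the 34 genes, expression lay 0.37 below the control mean in L1CAM replicate 1 (-0.37), at -1.38 in replicate 2 and at -1.29 in replicate 3. The control cultures lay at -0.19, 0.16 and 0.03. In 32 of the 34 genes L1CAM replicates 2 and 3 were both below replicate 1, an order found in 35.3% of all genes. L1CAM replicate 1 was below every control array in 29 genes, against 31.5% of all genes, and all L1CAM arrays were below all control arrays in 29 genes, against 16.0% of all genes. Among the 22 called genes, the fall in L1CAM replicate 1 was 20.2% to 45.6% of the mean fall in replicates 2 and 3, with a median of 30.1%. The control cultures were ordered too, with replicate 1 the lowest in 30 genes and replicate 2 the highest in 31, where 33.8% and 30.6% of all genes showed those orders.

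**Figure D2:**
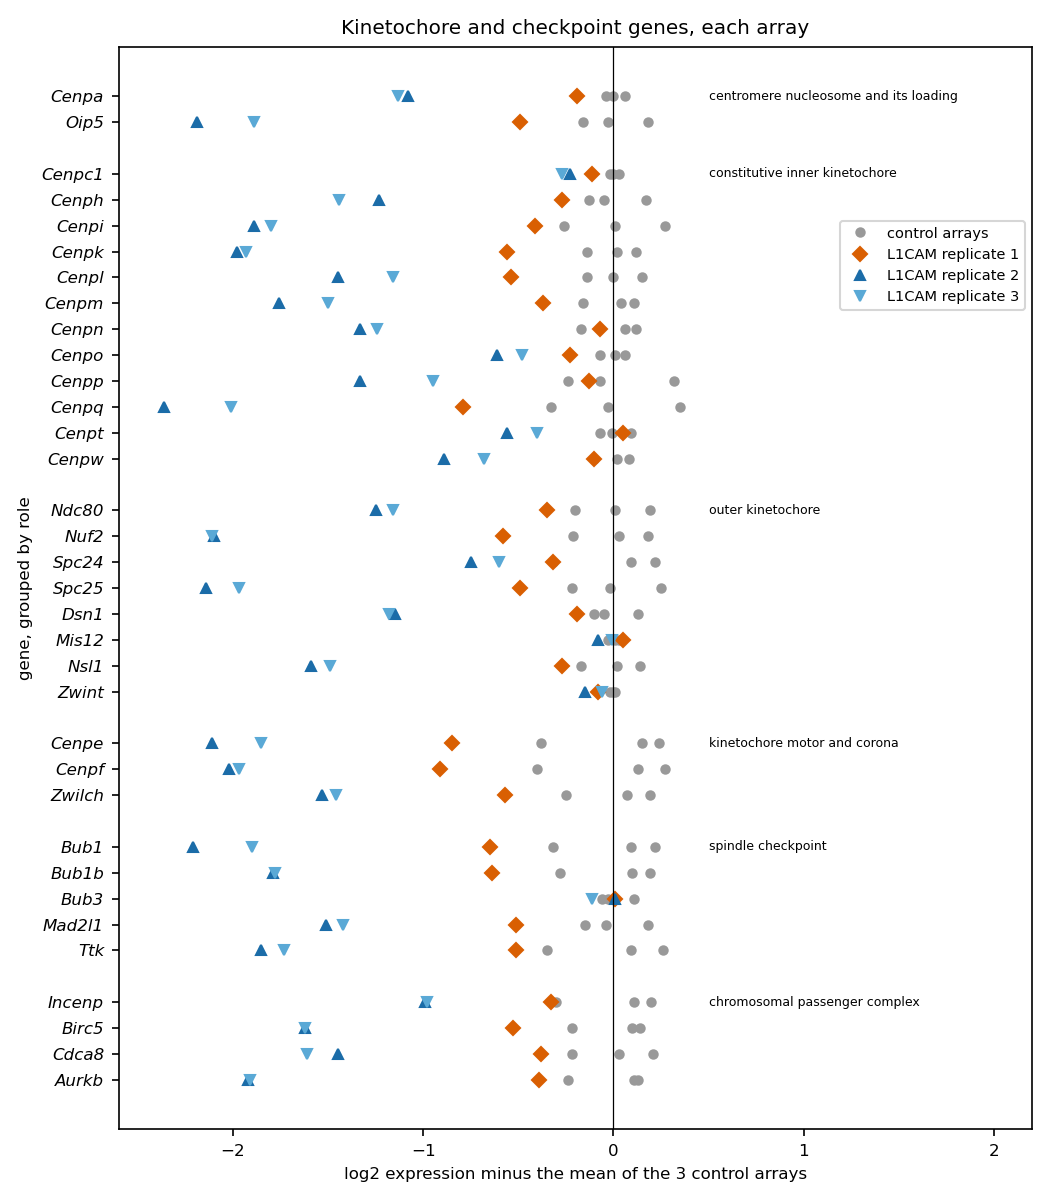
Log2 expression of each of the 34 genes minus its control mean, by array, with genes grouped by role. Control arrays are grey circles, and L1CAM replicates 1, 2 and 3 are a diamond, an upward and a downward triangle. L1CAM replicates 2 and 3 lie far to the left in most rows, and L1CAM replicate 1 lies between them and the control arrays.

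Leaving out a single array changed how many genes were called, though the median difference stayed between -1.48 and -0.91 in the fits that left out 1 array. Without L1CAM replicate 1, 31 of the 34 genes were called lower, against 12.9% of all genes. Without control replicate 1 there were 8 (Cenpl, Cenpq, Spc24, Cenpe, Cenpf, Zwilch, Bub1b and Incenp), against 4.80%. Without L1CAM replicate 2 there was 1, Cenpl, against 3.73%. Without control replicate 2, control replicate 3 or L1CAM replicate 3 limma called 0, against 2.90%, 2.96% and 3.43%, while 28, 27 and 27 genes had an unadjusted p under 0.05 and a lower mean, against 11.7%, 11.9% and 11.7%. The SD of a gene among the L1CAM cultures had a median of 0.62 over the 34 genes and 0.09 over all genes, and among the control cultures 0.18 and 0.07.

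With all 6 arrays, fits that changed the normalization, the filter, the probe set choice or the intensity trend called 21 to 27 genes lower. The other fits gave 0 to 31. Quantile normalization again gave 21 (7.88% of all genes lower), array medians set to 0 gave 21 (8.12%), all probe sets 21 (7.91%), averaged probe sets 22 (8.20%), an intensity trend 26 (8.92%) and a filter on dim genes, which dropped Cenpw, 27 of 33 (16.3%). Each of the 34 genes has 1 probe set, so averaging or using all probe sets left its values unchanged. Those fits could change only the shared variance and the adjustment, and do not test the probe set choice for these genes. Array weights, which set L1CAM replicate 1 at 0.323, gave 31 (13.2%). A robust prior gave 8 (7.59%), and the replicate number as a block gave 7 (5.74%). An ordinary linear model without a shared variance and limma's treat against a difference of 0.5 each gave 0 (1.66% and 0.361% of all genes lower), with 20 and 19 genes at an unadjusted p under 0.05.

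**Figure D3:**
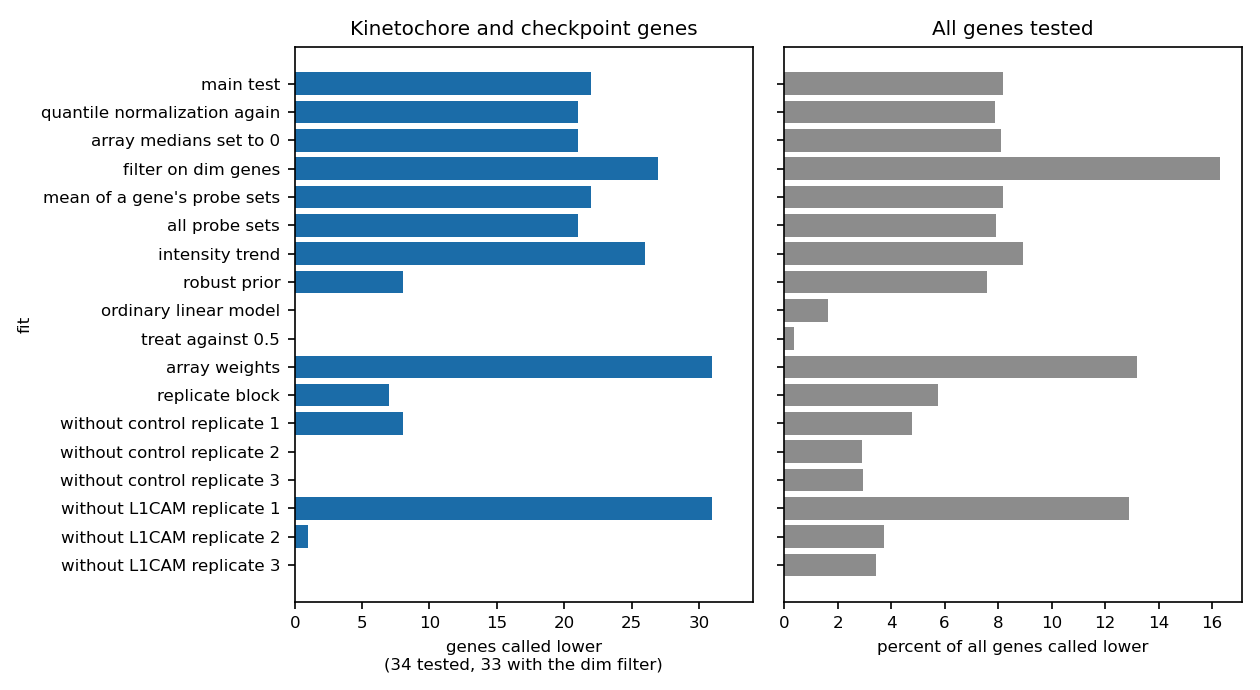
Number of kinetochore and checkpoint genes called lower in each fit (left, bars from 0) and percent of all genes called lower in the same fit (right, bars from 0). The count is 22 in the main test, with all 6 arrays and limma's default prior, 31 without L1CAM replicate 1 and 0 to 8 in the fits that leave out another array.

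Promoter windows were searched for letters known from cell cycle genes, since most of the 34 genes moved together. The CHR (cell cycle genes homology region) is known to bind the DREAM complex, which represses such genes in resting cells, and the B-Myb and FoxM1 factors that activate them in G2. CCAAT boxes, bound by NF-Y, often stand before it. RefSeq windows of GRCm38.p6, from 250 bases before to 50 after a start, were matched for 29 of the 34 genes (32 windows). Aurkb, Incenp, Nsl1, Spc24 and Zwilch were not matched. On both strands, a CHR (TTTGAA or TTCGAA) was found in 15 of the 32 windows (46.9%) and in 19.2% of all 32851 windows. A CCAAT box was found in 24 windows (75%, all windows 37.4%), and an E2F-like motif in 7 (21.9%, all windows 6.7%). The E2F-like letters searched were TTTGGCG, then TTTCCCG in the same role, next TTTCGCG as a further form and last TTTGCCG. Motifs of different kinds overlapped in 2 of the 32 windows. The median difference was -1.18 over the 14 genes with a CHR and -0.98 over the 15 without, and -1.21 over the 21 genes with a CCAAT box and -0.88 over the 8 without. For the E2F-like motif it was -1.15 over the 7 genes with it and -1.06 over the 22 without. These are descriptions of letters in a window, with no test.

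The printed stretches run from 120 bases before to 30 after the start, on the strand of the gene, with CHR and CCAAT motifs in capitals (TTCAAA and ATTGG are their reverse-strand spellings). Cenpf, Bub1, Spc25 and Ttk, from the corona, the checkpoint and the outer kinetochore, are shown as examples. They were called lower and hold a CHR just after the start with CCAAT boxes before it. Cdca8 and Oip5 are among the called genes with that layout that are not printed. Cenpa, which was not called, has it too, with the CHR at base 17 after the start. Cenpn and Cenpw, also not called, hold a CHR and a CCAAT box before the start. Other called genes differ: the CHR begins 162 bases before the start in Cenpl and 83 before it in Cenpm. Called too, Cenpo, Mad2l1 and Nuf2 hold no CHR, CCAAT box or E2F-like motif. The position of a motif was not tested. Mis12 and Bub3 are shown because they hardly differed between the groups: Mis12 holds CCAAT boxes alone, and Bub3 holds both motifs, with the CHR letters before the start.
Cenpf, chr1:189688057-189688206, minus strand: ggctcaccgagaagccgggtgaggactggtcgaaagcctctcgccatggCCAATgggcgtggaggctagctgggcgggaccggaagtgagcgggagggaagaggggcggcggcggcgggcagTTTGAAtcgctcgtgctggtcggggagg
Bub1, chr2:127831830-127831979, minus strand: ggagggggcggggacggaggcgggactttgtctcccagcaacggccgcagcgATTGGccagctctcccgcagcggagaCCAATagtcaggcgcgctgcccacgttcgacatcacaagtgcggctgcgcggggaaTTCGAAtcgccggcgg
Spc25, chr2:69206184-69206333, minus strand: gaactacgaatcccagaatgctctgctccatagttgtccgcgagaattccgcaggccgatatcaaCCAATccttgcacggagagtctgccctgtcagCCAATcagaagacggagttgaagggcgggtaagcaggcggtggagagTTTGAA
Ttk, chr9:83834569-83834718, plus strand: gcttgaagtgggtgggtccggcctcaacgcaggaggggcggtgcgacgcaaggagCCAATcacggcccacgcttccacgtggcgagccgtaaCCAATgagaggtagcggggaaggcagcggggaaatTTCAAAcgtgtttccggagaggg
Mis12, chr11:71019491-71019640, plus strand: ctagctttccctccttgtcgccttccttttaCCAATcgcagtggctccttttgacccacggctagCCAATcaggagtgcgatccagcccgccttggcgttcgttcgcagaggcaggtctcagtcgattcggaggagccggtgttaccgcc
Bub3, chr7:131560250-131560399, plus strand: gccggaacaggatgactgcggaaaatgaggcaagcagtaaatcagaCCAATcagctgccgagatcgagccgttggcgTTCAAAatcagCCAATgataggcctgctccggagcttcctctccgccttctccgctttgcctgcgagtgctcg
The capitals of the CHR begin at base 3 after the start in Cenpf, 15 in Bub1, 25 in Spc25 and 8 in Ttk, and 43 bases before it in the Bub3 stretch. Bub3 has another annotated start downstream, from which the same CHR letters lie 167 bases before. The windows of both starts overlap, so the Bub3 motifs were counted in each. The TTCAAA spelling stands in the printed stretches of Ttk, which fell by 1.37, and of Bub3, which measured -0.03.

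The counts by role below are to be read against 8.19% of all genes called lower, and 12.9% without L1CAM replicate 1. All L1CAM arrays lay below all control arrays in 16.0% of all genes. The centromere nucleosome and its loading are represented by Cenpa and Oip5. Oip5, a subunit of the Mis18 complex that prepares centromeres for new CENP-A, measured 7.70, 8.04 and 7.83 on the control arrays and 7.37, 5.66 and 5.96 on the L1CAM arrays. The groups did not overlap, and the difference was -1.53 (SE 0.39, adjusted p = 0.0376). Cenpa, the histone H3 variant itself, measured 10.35, 10.45 and 10.39 against 10.21, 9.32 and 9.27. Its groups did not overlap either, but its difference of -0.80 (SE 0.23) had an adjusted p of 0.0533 and was not called. Without L1CAM replicate 1 both genes were called, Cenpa at -1.10 and Oip5 at -2.04, and without any other array neither was.

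The constitutive inner kinetochore, which stays on the centromere through the cell cycle, had 7 of 12 genes called lower and a median of -0.93. Cenpq, which with Cenpo and Cenpp belongs to the CENP-O subcomplex, had the largest difference of all 34 genes, at -1.72 (SE 0.38, adjusted p = 0.0227). It measured 7.89, 8.57 and 8.19 on the control arrays and 7.43, 5.86 and 6.21 on the L1CAM arrays, so the groups did not overlap. Its partner Cenpo fell by 0.44 (SE 0.10, adjusted p = 0.0229), from 8.12, 8.25 and 8.20 to 7.96, 7.59 and 7.71. Cenpp measured 6.68, 7.24 and 6.85 against 6.80, 5.59 and 5.97, so that L1CAM replicate 1 lay within the control range, and its -0.80 was not called (adjusted p = 0.107). These 3 genes, which are not all of the subcomplex, thus had differences of -1.72, -0.80 and -0.44.

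Cenph, Cenpi and Cenpk form a further subcomplex that links CENP-C and CENP-T to the rest of the inner layer, and all 3 fell. Cenpk measured 7.19, 7.45 and 7.35 on the control arrays and 6.77, 5.35 and 5.40 on the L1CAM arrays, a difference of -1.49 (SE 0.34, adjusted p = 0.0274). Cenpi measured 7.43, 7.96 and 7.70 against 7.29, 5.80 and 5.90, or 2.57-fold lower (adjusted p = 0.0451). Cenph measured 7.14, 7.36 and 7.06 against 6.92, 5.96 and 5.74, or 1.97-fold lower, and its adjusted p of 0.04997 was the called value closest to the threshold. In each of the 3 the groups did not overlap, and L1CAM replicate 1 lay much nearer the control arrays than replicates 2 and 3. Cenpm, which binds CENP-I, fell from 9.70 ± 0.14 to 8.49 ± 0.74 (SD, n = 3 arrays per group), or 2.31-fold. Cenpl, a partner of CENP-N, measured 7.30, 7.59 and 7.44 against 6.90, 5.99 and 6.28, and its -1.05 (SE 0.21, adjusted p = 0.0163) kept its call without control replicate 1, L1CAM replicate 1 or L1CAM replicate 2.

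The remaining inner kinetochore genes were not called. Cenpn, which reads the CENP-A nucleosome, measured 9.97, 10.26 and 10.20 against 10.07, 8.81 and 8.90. L1CAM replicate 1 lay among the control arrays while replicates 2 and 3 lay below them, and the difference of -0.88 had an adjusted p of 0.0950. Cenpt, a DNA-bound platform for the NDC80 complex, showed the same placement, at 10.23, 10.17 and 10.33 against 10.30, 9.69 and 9.85 (difference -0.30, adjusted p = 0.221). Its partner Cenpw measured 6.25, 6.37 and 6.43 against 6.25, 5.46 and 5.67 (difference -0.56, adjusted p = 0.0800), with its control mean below the array medians too. Cenpc1, encoding CENP-C, which bridges the CENP-A nucleosome and the outer layer, had the smallest inner kinetochore difference, at -0.20 (SE 0.06, adjusted p = 0.0641). Its arrays read 8.31, 8.28 and 8.26 against 8.18, 8.05 and 8.02 and did not overlap. Without L1CAM replicate 1 all 12 inner kinetochore genes were called, against 12.9% of all genes. Their median was -1.30, with Cenpt at -0.48 and Cenpc1 at -0.25. Without control replicate 1 Cenpl and Cenpq were called, without L1CAM replicate 2 Cenpl alone, and none of the 12 in the other 3 fits of that kind.

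In the outer kinetochore, 3 of 8 genes were called lower, all of them from the NDC80 complex. Nuf2 measured 9.24, 9.63 and 9.48 on the control arrays and 8.86, 7.35 and 7.34 on the L1CAM arrays, a 3.03-fold difference (adjusted p = 0.0299). Spc25 measured 9.16, 9.63 and 9.36 against 8.89, 7.24 and 7.41, or 2.90-fold lower (adjusted p = 0.0387). Ndc80, whose head binds the microtubule together with that of Nuf2, fell by 0.92 (SE 0.23, adjusted p = 0.0349), from 8.43 ± 0.20 to 7.51 ± 0.50 (SD, n = 3 arrays per group). None of these groups overlapped. The fourth subunit gene, Spc24, measured 6.87, 7.41 and 7.28 against 6.87, 6.43 and 6.59, and its -0.56 narrowly missed the call (adjusted p = 0.0509). L1CAM replicate 1 and control replicate 1 were equal for Spc24 to 2 decimals.

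The listed genes of the MIS12 complex, which joins NDC80 to the inner layer, were uneven. Nsl1 measured 8.18, 8.49 and 8.37 against 8.08, 6.76 and 6.86, a difference of -1.11 (SE 0.32) with an adjusted p of 0.0540. Dsn1 measured 8.42, 8.65 and 8.47 against 8.33, 7.36 and 7.34 (-0.84, adjusted p = 0.0583). Both missed the threshold with groups that did not overlap. Mis12 read 9.74, 9.80 and 9.78 against 9.82, 9.69 and 9.76, with overlapping groups, and its difference of -0.01 had a 95% interval of -0.14 to 0.12. Zwint, which connects the outer layer to the ROD-ZW10-ZWILCH complex, read 11.71, 11.72 and 11.69 against 11.63, 11.56 and 11.64. Its groups did not overlap, but the difference was -0.10 (95% interval -0.22 to 0.03, adjusted p = 0.282). Without L1CAM replicate 1, Ndc80, Nuf2, Spc24, Spc25, Dsn1 and Nsl1 were called, with Nsl1 at -1.54 and Dsn1 at -1.16, while Mis12 (-0.04) and Zwint (-0.11) were not. Without control replicate 1 the called gene was Spc24, and leaving out any of the other 4 arrays left no call.

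All 3 kinetochore motor and corona genes were called, and Cenpf and Cenpe had the smallest adjusted p-values of the 34. Cenpf, a large corona protein that accumulates in G2 and is degraded after mitosis, measured 8.69, 9.36 and 9.22 on the control arrays and 8.18, 7.08 and 7.13 on the L1CAM arrays. The difference was -1.63 (SE 0.30, adjusted p = 0.0127). Cenpe, the kinesin that carries chromosomes towards the spindle equator, measured 8.93, 9.55 and 9.46 against 8.46, 7.20 and 7.46, a difference of -1.61 (SE 0.31, adjusted p = 0.0155). L1CAM replicate 1 carried 45.6% of the mean fall of the other L1CAM cultures for Cenpf and 43.1% for Cenpe, the former being the highest share among the 22 called genes. Zwilch, of the complex that brings dynein and checkpoint proteins to kinetochores, measured 8.62, 9.06 and 8.94 against 8.31, 7.34 and 7.41, or 2.28-fold lower (adjusted p = 0.0197). The groups did not overlap for any of the 3. The 3 genes kept their calls without control replicate 1 or L1CAM replicate 1 and lost them without any of the other 4 arrays.

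Of the 5 spindle checkpoint genes, 4 fell. Bub1, the kinase that recruits other checkpoint proteins, measured 9.53, 10.07 and 9.94 on the control arrays and 9.20, 7.64 and 7.94 on the L1CAM arrays. Its difference was -1.59 (SE 0.37), or 3.00-fold lower (adjusted p = 0.0277). Bub1b, encoding BubR1 of the mitotic checkpoint complex, measured 9.11, 9.58 and 9.49 against 8.75, 7.60 and 7.62, a difference of -1.40 (SE 0.30, adjusted p = 0.0203). Ttk, the Mps1 kinase that starts checkpoint signalling, measured 7.50, 8.11 and 7.94 against 7.34, 6.00 and 6.12, or 2.58-fold lower (adjusted p = 0.0347). Mad2l1, which as Mad2 inhibits Cdc20, fell from 11.20, 11.53 and 11.31 to 10.84, 9.85 and 9.93 (-1.15, adjusted p = 0.0208). In none of the 4 did the groups overlap.

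Bub3, the partner that binds both Bub1 and BubR1, read 11.08, 11.25 and 11.11 on the control arrays and 11.16, 11.16 and 11.04 on the L1CAM arrays. The groups overlapped, and the difference of -0.03 had a 95% interval of -0.18 to 0.13 (adjusted p = 0.834). Without L1CAM replicate 1, Bub1 (-2.05), Bub1b (-1.78), Ttk (-1.79) and Mad2l1 (-1.46) were again called and Bub3 (-0.05, adjusted p = 0.701) was not. Without control replicate 1 Bub1b alone was called, and leaving out any of the other 4 arrays left no checkpoint gene called. That Bub3 differed less than its partners was not tested as an interaction.

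All 4 chromosomal passenger genes fell. Aurkb, the Aurora B kinase, measured 10.73, 11.10 and 11.08 on the control arrays and 10.58, 9.05 and 9.06 on the L1CAM arrays, a difference of -1.41 (SE 0.38, adjusted p = 0.0451). Its fall in L1CAM replicate 1 was 20.6% of that in the other L1CAM cultures. Birc5, or survivin, which docks the complex on centromeric chromatin, measured 7.99, 8.35 and 8.31 against 7.68, 6.60 and 6.60, or 2.39-fold lower (adjusted p = 0.0242). Cdca8, encoding borealin, which joins survivin and INCENP at the centromere, measured 8.11, 8.54 and 8.36 against 7.95, 6.89 and 6.72, or 2.21-fold lower (adjusted p = 0.0399). Incenp, the scaffold that activates Aurora B, measured 9.21, 9.71 and 9.62 against 9.18, 8.52 and 8.53, and its -0.77 (adjusted p = 0.0395) was the smallest of the 4. The L1CAM arrays lay below all control arrays for each gene, for Incenp by 0.03 in L1CAM replicate 1. All 4 were called without L1CAM replicate 1, Incenp alone without control replicate 1, and none without any of the other 4 arrays.

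**Figure D4:**
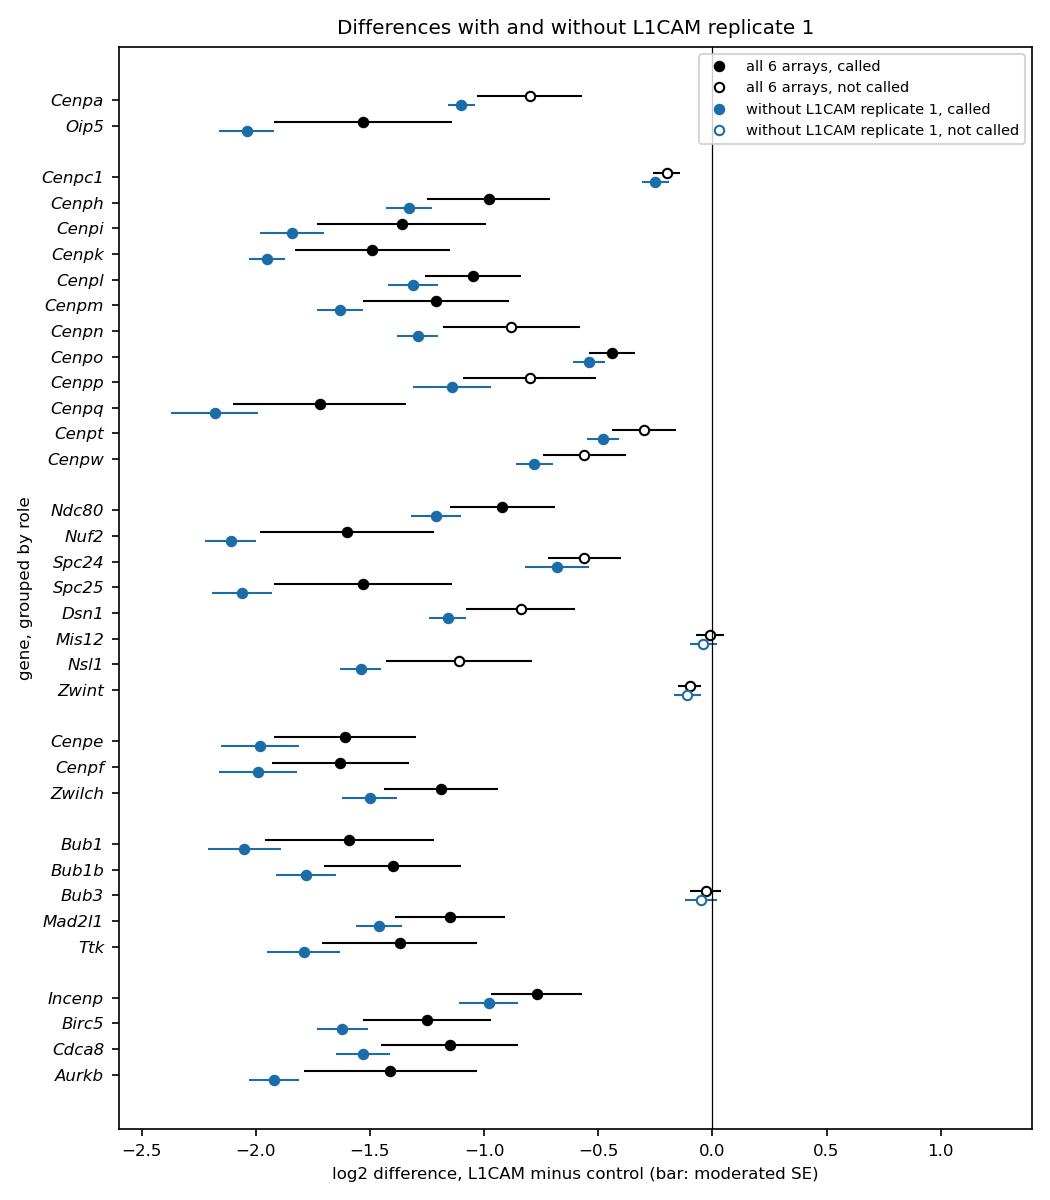
Log2 difference between L1CAM and control cells for each gene, with the moderated SE as a bar, from all 6 arrays (black) and without L1CAM replicate 1 (blue). Filled circles passed an adjusted p of 0.05. Without L1CAM replicate 1 each difference lies further from 0 and 31 of 34 genes are called, while Mis12, Zwint and Bub3 stay near 0.

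The L1CAM means of 9 of the 34 genes lay below the array medians: Oip5, Cenph, Cenpi, Cenpk, Cenpl, Cenpp, Cenpq, Cenpw and Ttk. These RNAs were not shown to be above background in L1CAM cells, so their differences are not exact, and 7 of them were among the 22 called. The probe sets give no view of splice forms or protein.

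Other genes of the same machinery moved in part, and their counts are to be read against the 8.19% of all genes called lower and 6.85% called higher with all 6 arrays, and 12.9% and 12.0% without L1CAM replicate 1. Of 39 further centromere and kinetochore genes 16 fell (41.0%) and 1 rose, with a median of -0.35, and without L1CAM replicate 1 24 fell (61.5%) and 1 rose. Ska3, of the SKA complex that follows shrinking microtubules, was 2.90-fold lower, and Kif2c, a microtubule-depolymerising kinesin, 2.77-fold. Knl1, the platform on which Bub1 and Bub3 assemble, fell by 1.41 and Sgo1, a protector of centromeric cohesion, by 1.31. Rcc2, which guides the passenger complex, was the gene that rose, from 10.62, 10.53 and 10.56 to 10.96, 10.90 and 11.01 (0.38, adjusted p = 0.00562), and it kept that call whichever array was left out.

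The anaphase-promoting complex, the target of the checkpoint, had 6 of 23 listed genes lower (26.1%, all genes 8.19%) and 0 higher, with a median of -0.12, and 9 lower without L1CAM replicate 1 (39.1%, all genes 12.9%). Those with the largest falls were regulators and substrates and not subunits: its inhibitor Fbxo5 (Emi1, 2.98-fold lower), the cyclins Ccna2 (2.46-fold) and Ccnb2 (2.16-fold) and the activator Cdc20 (2.09-fold). Fbxo5 had a limma adjusted p of 0.04997, and its call was lost with quantile normalization again (0.0506) and over all probe sets (0.0514). The calls of Fbxo5, Ccna2, Ccnb2 and Cdc20 held without L1CAM replicate 1 and were lost when any other array was left out. Among 22 transcriptional regulators of mitotic genes 4 fell (18.2%, all genes 8.19%) and 1 rose (4.55%, all genes 6.85%), with 13 lower (59.1%, all genes 12.9%) and 1 higher without L1CAM replicate 1. E2f8 (2.93-fold), Foxm1 (2.37-fold), E2f7 (1.91-fold) and Lin9, a DREAM and MuvB subunit (1.66-fold), were lower, and E2f4, the E2F of the DREAM complex, rose by 0.28 (adjusted p = 0.0392). The E2f4 call held without L1CAM replicate 1 (adjusted p = 0.00500) and was lost when any of the other 5 arrays was left out (adjusted p 0.103 to 0.134) and in the ordinary linear model (0.126).

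General markers of cycling cells moved beside the kinetochore genes. Of 12, 10 fell (83.3%, all genes 8.19%) and 0 rose (all genes 6.85%), with a median of -1.04. Without L1CAM replicate 1, 12 were lower (all genes 12.9%). Mki67 measured 10.66, 11.03 and 11.02 against 10.49, 9.22 and 9.20, and Rrm2, Top2a and Mcm7 were 2.92-fold, 2.41-fold and 2.27-fold lower. With its probe sets averaged, Top2a differed by -0.66 in place of -1.27. Averaged over these 12, L1CAM replicates 1, 2 and 3 lay at -0.31, -1.38 and -1.34, next to -0.37, -1.38 and -1.29 for the kinetochore and checkpoint genes. A share of cycling cells was not measured, and its part in the result was not tested. With control replicate 1 left out, 4 of the further kinetochore genes, 0 of the anaphase-promoting complex list, 1 regulator and 0 cycling markers were called lower, where 4.80% of all genes were, so that 1 of 22 regulators (4.55%) was near that share. Leaving out control replicate 2 or 3 gave 0 in each list, where 2.90% and 2.96% of all genes were called lower. Leaving out L1CAM replicate 2 or 3 gave 1 of the 39 further kinetochore genes and 0 in the other lists. That 1 of 39 was not above the 3.73% and 3.43% of all genes called lower in those fits.

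**Figure D5:**
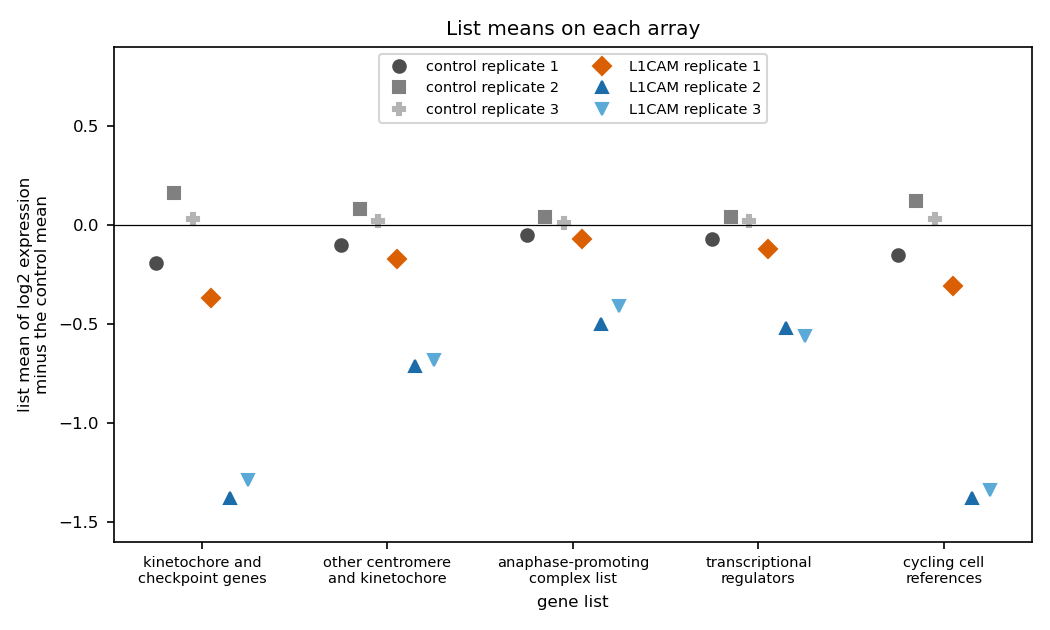
Mean over each gene list of log2 expression minus the control mean, for each of the 6 arrays. In all 5 lists L1CAM replicates 2 and 3 lie lowest, and L1CAM replicate 1 lies between them and the lowest control array.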

How the data were processed

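The authors deposited log2 expression per probe set. The submitters' processing notes name RMA and Affymetrix Expression Console 1.1; other settings and the genome build were not given in the sources used here. RMA equalises arrays and summarises probes on the log2 scale. In the platform annotation, updated by Entrez identifier, 21789 of 35512 probe sets carried 1 gene symbol, 1621 several and 12102 none. Keeping the probe set with the highest mean per gene left 19938 genes, all fitted with lmFit and eBayes of limma 3.58.1 (R 4.3.3), the design holding the group alone, with two-sided tests, Benjamini-Hochberg adjustment over all genes and a threshold of 0.05. SE is moderated, and a fold is 2 to the power of the difference. Figures used Python 3.11.15 and matplotlib 3.10.9.

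Named are every measured member, L1cam, up to 4 called genes per direction of each of 4 further lists, and markers. Members and lists were chosen with earlier results of these data known. The procedure was also run on simulated data with independent noise for each gene and array. That run held no array that stood apart, so it does not cover the placement of L1CAM replicate 1. Precision is limited by 3 arrays per group. Alternatives covered normalization, filters, probe set choice, priors, weights, a replicate block and each array left out. Promoter windows came from RefSeq (GRCm38.p6).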

Additional observations from a re-analysis of the deposited data

How the results depend on the processing

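No gene of the 34 rose under any alternative, and no alternative turned a called difference. The count of 22 genes called lower was 21 after quantile normalization again, with array medians set to 0 and over all probe sets, 22 with averaged probe sets, 26 with an intensity trend, 27 of 33 with the filter on dim genes and 31 with array weights. It was 8 with a robust prior, and 0 both in an ordinary linear model (20 at an unadjusted p under 0.05) and in treat against 0.5 (19). Leaving out 1 array gave 0 to 31. The 16 further centromere and kinetochore genes became 7, 0 and 0 in those 3 fits and 0 to 24 with 1 array left out. The 6 of the anaphase-promoting complex list became 1, 0 and 0, and 0 to 9. The 4 transcriptional regulators became 2, 0 and 0, and 0 to 13, with 15 under array weights. The 10 cycling cell references became 3, 0 and 0, and 0 to 12. In those 3 fits 7.59%, 1.66% and 0.361% of all genes were called lower. The share was 13.2% with array weights and 2.90% to 12.9% with 1 array left out. With a robust prior, 1 of 23 genes of the anaphase-promoting complex list and 2 of 22 regulators were near or below the 7.59% of all genes. Over all genes the 2999 calls became 581 in the ordinary linear model, 152 in treat and 5191 with array weights, and 1033 to 4952 with 1 array left out. The median difference of the 34 genes ranged from -1.48 to -0.91. Each of the 34 has 1 probe set, so the fits with other probe set choices left its values unchanged.

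Same-numbered deviations from the group means correlated at -0.10, -0.102 and -0.027 across genes, and other-numbered ones at -0.088 to 0.123. The labels state no pairing, and these values cannot settle whether same-numbered cultures were handled together. With the replicate number as a block, 7 of the 34 genes (5.74% of all genes lower), 3 of the further kinetochore genes, 0 of the anaphase-promoting complex list, 2 regulators and 2 cycling references were called lower. The higher call of E2f4 was lost (adjusted p = 0.0719). Mis12 and Bub3, not called in any fit, changed sign when 1 array was left out: Mis12 ranged from -0.04 to 0.02, with 0.00 without control replicate 2 and 0.02 without L1CAM replicate 2, and Bub3 from -0.06 to 0.02, with 0.02 without control replicate 2 and 0.01 without L1CAM replicate 3. The cause of these changes was not tested. With 3 arrays per group, and 9 genes below the array medians in L1CAM cells, small falls of dim genes are not resolved.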
